A study of Mus musculus with 4 samples.

Results

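The genes described here are 10 genes of prostaglandin production, breakdown and sensing: Pla2g4a, Ptgs1, Ptgs2, Ptges, Ptgis, Hpgds, Hpgd, Ptger2, Ptger3 and Ptger4. They were taken by gene symbol from the count tables, where all 10 were present among 55450 genes. The counts come from single cells of the mid-colon of specific-pathogen-free mice aged 7 weeks. The drinking water was clean for the control group and held 3% dextran sulfate sodium (DSS), a detergent-like sugar polymer that damages gut epithelium, for 2 days in the DSS group. The labels state neither strain, genotype nor sex. Each group held 2 libraries, named control 1, control 2, DSS 1 and DSS 2. The labels do not state that the libraries of a group came from separate animals, so the p-values reflect only how far these libraries differ, and that may be technical.

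Prostaglandins are lipid signals made on demand. The phospholipase encoded by Pla2g4a frees arachidonic acid from membranes, and the cyclooxygenases encoded by Ptgs1 and Ptgs2 turn it into prostaglandin H2. Terminal synthases then set the product: prostaglandin E2 by Ptges, prostacyclin by Ptgis and prostaglandin D2 by Hpgds. The dehydrogenase encoded by Hpgd inactivates prostaglandins, and Ptger2, Ptger3 and Ptger4 encode receptors for prostaglandin E2. In the gut this lipid is known for roles in epithelial repair, muscle tone and inflammation. Ptgs1 is generally described as steadily expressed, and Ptgs2 as an immediate early gene that injury and inflammatory signals switch on.

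After filtering, 42448 cells remained, between 9039 and 11591 per library, with a median of 4731 to 6298 unique molecular identifiers (UMIs, the count of captured transcripts) per cell. The deposited files held between 101051573 and 109472082 UMIs per library. Cells were grouped by expression into 37 clusters, and clusters were named from marker genes into 24 classes. The 10 genes and 42 of 43 other genes of the pathway were left out of the choice of variable genes. Prxl2b, listed under another symbol, was not left out. Each class name is shorthand for cells resembling that type. The macrophage class was named from markers of monocytes and macrophages together, so it also takes in cells resembling monocytes. Dendritic cells numbered 88, 317, 719 and 336 in control 1, control 2, DSS 1 and DSS 2. At a finer clustering (resolution 2) they numbered 46, 98, 435 and 203, so this class may also hold other myeloid cells. Levels are CPM: the UMIs of a gene per 1000000 UMIs summed over the cells of a class in a library. Pairs of libraries shared 36 to 52 cell barcodes. Libraries differed within groups. Of the Has1 fibroblasts, led by Ptx3, Tnfaip6, Has1 and Il6, 2138 came from DSS 2 and only 3, 196 and 33 from control 1, control 2 and DSS 1, so this class may stand for 1 library rather than a cell type. Colonocytes came mostly from clusters 0 and 1 in the controls and from cluster 8, led by Ly6g and Il1rn, in DSS 2. In most stromal classes control 1 had the lowest summed level of 20 immediate early and heat shock genes, a list that marks activated or stressed cells.

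The 10 genes divided into stromal, myeloid, tuft and epithelial sources. Over all libraries, fibroblasts held 67.3% of Ptgs2 UMIs, 51.3% of Ptgs1 UMIs, 73.4% of Ptges UMIs, 66.8% of Ptgis UMIs and 50.7% of Ptger2 UMIs. Without DSS 2 they held 45.7% of Ptgs2 UMIs, and macrophages with dendritic cells held 33.5%. Epithelial cells held 81.4% of Hpgd UMIs, 76.3% of Ptger4 UMIs and 65.5% of Pla2g4a UMIs. In DSS 1, however, macrophages with dendritic cells held 32.2% of Ptger4 UMIs, against 30.3% in epithelial cells other than tuft cells. Fibroblasts there held 36.5% of Pla2g4a UMIs, against 28.4% in epithelial cells other than tuft cells. Macrophages held 42.8% of Hpgds UMIs, tuft cells, rare chemosensory cells of the epithelium, held 12.1%, and the other epithelial cells held 26.9%. Without DSS 1 macrophages held 30.5% of them, and tuft and other epithelial cells together held 50.7%. Interstitial cells of Cajal, the pacemakers of gut muscle, held 43.3% of Ptger3 UMIs, but 25.3% without DSS 1. Epithelial cells other than tuft cells held 30.3% of Ptger3 UMIs, and they led in control 2 (74.3%) and DSS 2 (43.9%). These shares follow both the level per cell and how many cells of each class a library held, and the latter varied widely. Fibroblasts gave 33.4% of Ptgs1 UMIs in DSS 1 and 72.2% in DSS 2, for example.

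**Figure D1:**
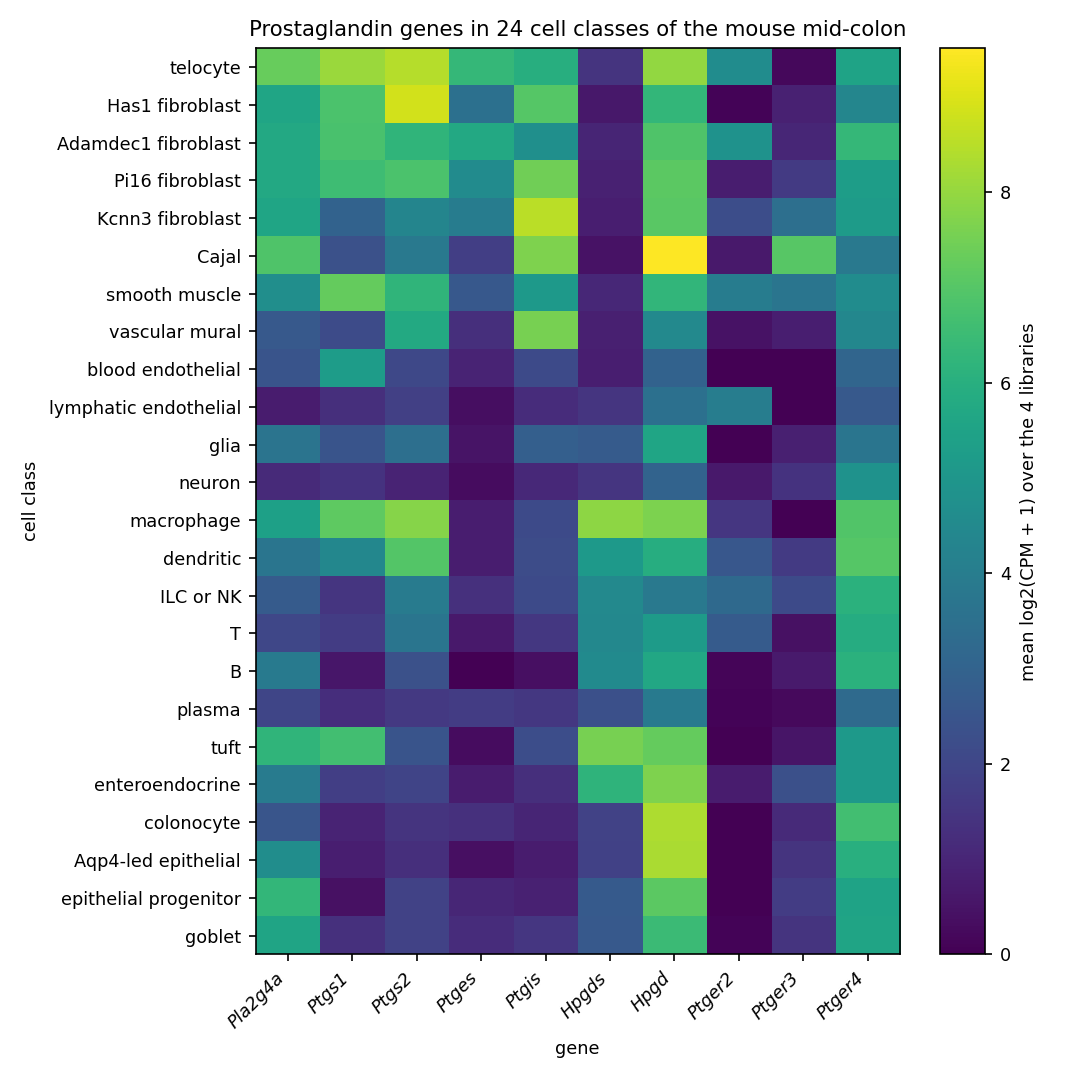
Mean log2(CPM + 1) over the 4 libraries for the 10 genes (columns) in the 24 named cell classes (rows). Colours are to be compared down a column: Ptgs1, Ptgs2 and Ptges are bright in telocytes, Hpgds in macrophages and tuft cells, Hpgd in Cajal cells and colonocytes, and Ptger3 in Cajal cells.

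**Figure D2:**
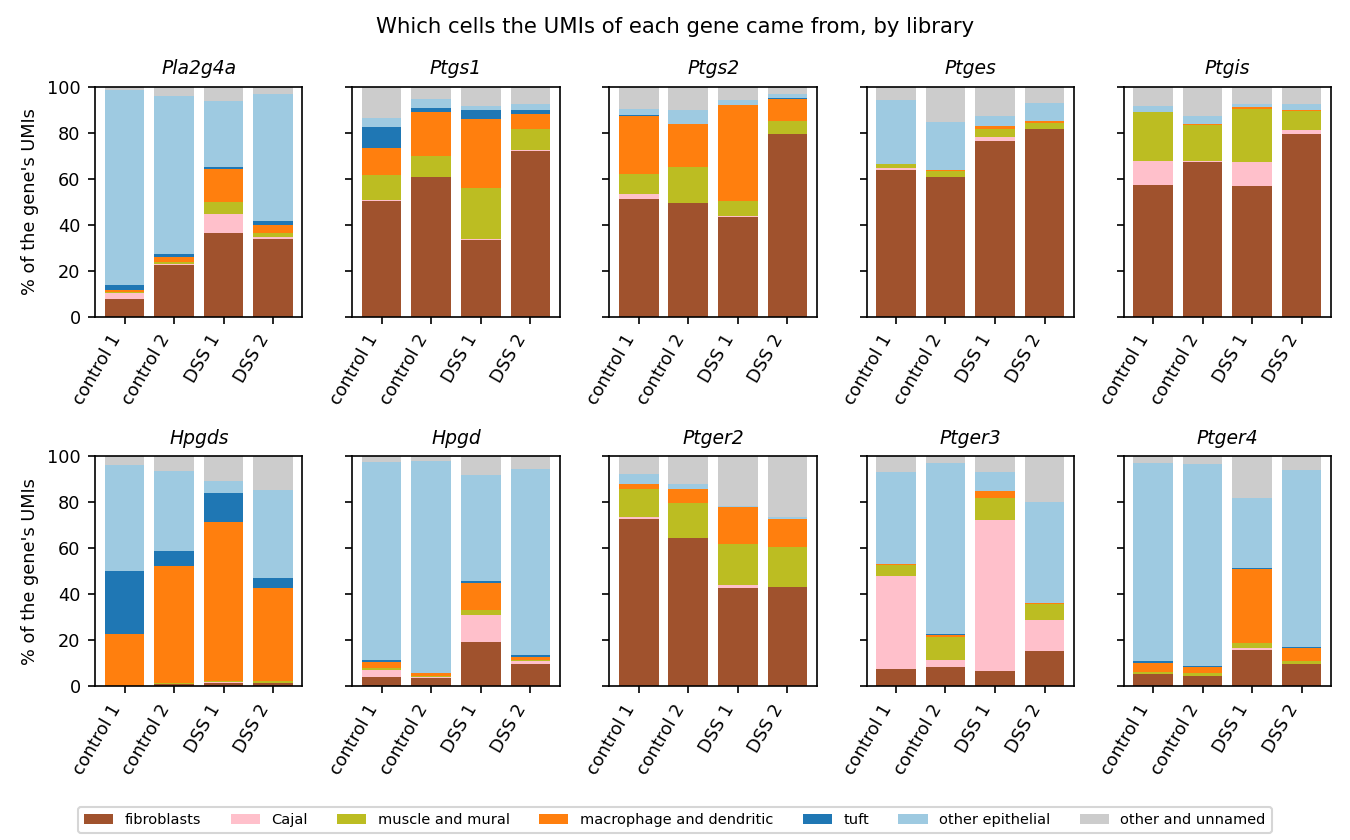
Share of each gene's UMIs (%, vertical axis) that came from groups of cell classes in each of the 4 libraries (horizontal axis). Fibroblasts led for Ptgs2, Ptges and Ptgis in all 4 libraries, while the sources of Ptger3 and Ptger4 differed between libraries of 1 group, as in the 65.8% and 13.4% of Ptger3 UMIs from Cajal cells in DSS 1 and DSS 2.

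DSS and control were compared in the 18 classes that had at least 20 cells in every library, on UMI sums per library, with the quasi-likelihood test of edgeR. Of the 10 genes, between 1 and 9 passed the filter on low counts in a class, which gave 109 pairs of gene and class. None of these 109 pairs passed an adjusted p of 0.05, against 0.0585% of all gene and class pairs (105 of 179533), and 23 (21.1%) had an unadjusted p under 0.05, against 6.37% of all pairs. The pairs are not independent, because the same 10 genes and the same libraries recur in many classes. The difference between these shares was not tested. DESeq2 passed 3 of the pairs, against 1.01% of all pairs: Ptgs2 in telocytes, and Hpgd in colonocytes and in Aqp4-led epithelial cells. The fit without a count filter passed 10 (against 1.20% of all pairs), among them Ptgs2 in Adamdec1 fibroblasts (adjusted p = 3.07e-13), Hpgds in dendritic cells (adjusted p = 0.000110) and Hpgd in colonocytes (adjusted p = 0.0234). A fit that leaves out 1 library keeps a single library in its group, which is then assumed to vary like the other group, and such fits passed more genes in all classes together (681 to 2350) than the fit with all 4 libraries. Both DSS libraries lay above both controls in 21 pairs (19.3%, against 13.0% of all pairs) and below both in 29 (26.6%, against 19.2%). For each gene, the 3 tested classes with its highest levels are given below with fold change and test. In data simulated from Pi16 fibroblasts, this test recovered 97% of genes changed by 2 on the log2 scale and 24% of those changed by 1. The simulation changed only genes of at least 20 CPM and gave every gene the spread usual at its level. These shares therefore do not hold for genes that differ more between libraries.

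**Figure D3:**
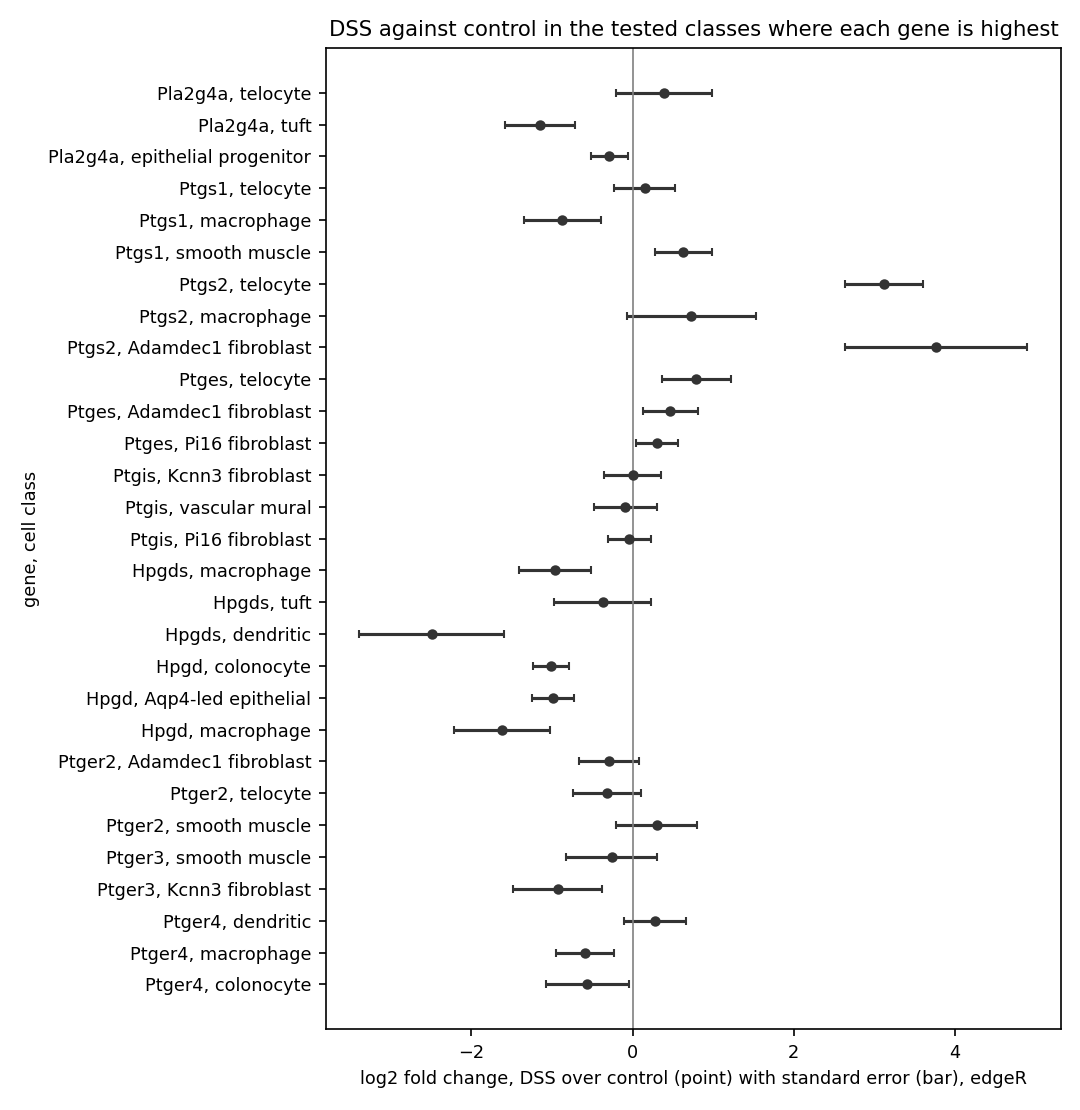
Log2 fold change of DSS over control (points, horizontal axis) with its standard error (bars) from edgeR for 29 pairs of gene and class. The 2 largest values are those of Ptgs2 in Adamdec1 fibroblasts (3.77) and telocytes (3.12), and no pair passed the adjusted threshold.

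Pla2g4a, which starts the pathway, was highest in telocytes, the thin fibroblasts that line the crypts and make Wnt and Bmp signals. It lay at 259 and 66.5 CPM in the controls and at 233 and 157 CPM in the DSS libraries (log2 fold change 0.39, SE 0.59, adjusted p = 0.948). The groups overlapped, and control 2 was the lowest library. Without control 2 or DSS 1 the value was -0.32 or -0.02. Cajal cells, which were not tested, followed at 88.0 to 166 CPM. In tuft cells the level was 102 and 132 CPM in the controls and 36.5 and 58.6 CPM in the DSS libraries. The groups did not overlap, yet the difference did not pass (-1.15, SE 0.43, adjusted p = 0.836). Epithelial progenitors, the dividing cells of the crypt, had 79.5 and 95.9 CPM against 70.4 and 68.6 CPM (-0.29, SE 0.23, adjusted p = 0.677). In colonocytes, the absorptive cells that leave the crypt, the gene was scarce, with no library above 7.04 CPM. Its level was thus higher in every library in progenitors than in colonocytes. Over all kept cells it lay at 51.3, 29.5, 24.2 and 28.7 CPM in control 1, control 2, DSS 1 and DSS 2 (-0.67, SE 0.36, adjusted p = 0.598).

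Ptgs1 was highest in telocytes, with 329 and 217 CPM in the controls and 312 and 240 CPM in the DSS libraries (log2 fold change 0.15, SE 0.38, adjusted p = 0.973). Without control 2 or DSS 1 this value was -0.17 or -0.15. Between 52.3% and 77.8% of telocytes had a Ptgs1 UMI, against 0.211% to 3.72% of colonocytes, which were deeper in every library (median 5112 to 14610 UMIs against 3432 to 6147). Macrophages had 135 and 267 CPM against 143 and 77.8 CPM (-0.87, SE 0.48, adjusted p = 1.000), with overlapping groups. At a finer clustering (resolution 2) the class split into a cluster led by Ccl12, Pf4 and C1qc, with 141 to 294 CPM of Ptgs1, and one led by Chil3 and Clec4e, with 12.5 to 24.7 CPM. Smooth muscle had 115 and 132 CPM against 203 and 168 CPM, so that both DSS libraries lay above both controls (0.63, SE 0.35, adjusted p = 1.000). Both clusters of this class carried it, the Actg2-led muscle cells at 127 to 239 CPM and the Hhip-led cells at 82.6 to 149 CPM.

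In tuft cells Ptgs1 lay at 101, 71.3, 192 and 64.7 CPM in control 1, control 2, DSS 1 and DSS 2, with overlapping groups. Of tuft cells with a Ptgs1 UMI, 71.2%, 77.8%, 80.0% and 69.6% also had one of Hpgds, against 64.2%, 62.1%, 71.5% and 43.3% of all tuft cells. The fit of tuft cells without DSS 2, with DSS 1 as the single DSS library, passed (1.37, SE 0.41, adjusted p = 0.0450), as did 1.82% of all genes. In the order of Ptgs1 levels the ranges of telocytes, macrophages and smooth muscle overlapped from one to the next. Adamdec1 fibroblasts had 91.9 to 138 CPM and Pi16 fibroblasts 77.2 to 111 CPM. Kcnn3 fibroblasts had 5.33 to 8.57 CPM, below every library of those 2 classes. Across all kept cells Ptgs1 was at 11.4 and 15.8 CPM in the controls and at 35.0 and 23.9 CPM in the DSS libraries (1.07, SE 0.37, adjusted p = 0.438). Over the fibroblasts alone it was at 89.2 and 104 CPM against 90.8 and 107 CPM. Cells of the macrophage class, monocyte-like cells included, numbered 177 and 194 in the controls and 948 and 366 in the DSS libraries. Fibroblasts numbered 1503 and 1583 in the controls and 2325 and 3832 in the DSS libraries. Macrophages with dendritic cells gave 12.0%, 19.3%, 29.9% and 6.56% of Ptgs1 UMIs, and fibroblasts 50.5%, 60.9%, 33.4% and 72.2%. The level over all kept cells follows both the level within each class and the number of its cells. The part of each class in it was not tested.

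Ptgs2 lies on chromosome 1 (GRCm38, positions 150100031 to 150108227, plus strand), and Ptgs1 on chromosome 2 (36230426 to 36252272, plus strand). Both are protein-coding, and Gm43621 on the minus strand overlaps Ptgs1. The starts of the 2 genes are shown because their levels behaved differently between libraries, and a link between letters and levels was not tested. The windows hold 250 bases before and 30 bases after each start, 5′ to 3′, as RefSeq gives them for GRCm38.p6 (1:150099781-150100060 and 2:36230176-36230455). Capitals mark matches, on either strand, to any of 4 motifs. The core of the cyclic AMP response element was searched as CGTCA. The E-box was searched as CACGTG. The C/EBP site was searched as TTGCGCAA. The TATA box was searched as TATAAA.
Ptgs2: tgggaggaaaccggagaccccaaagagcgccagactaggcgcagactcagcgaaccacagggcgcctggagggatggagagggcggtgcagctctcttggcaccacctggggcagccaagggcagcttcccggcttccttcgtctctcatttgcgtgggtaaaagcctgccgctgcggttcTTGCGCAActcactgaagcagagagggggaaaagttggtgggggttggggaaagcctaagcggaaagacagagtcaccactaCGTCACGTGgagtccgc
Ptgs1: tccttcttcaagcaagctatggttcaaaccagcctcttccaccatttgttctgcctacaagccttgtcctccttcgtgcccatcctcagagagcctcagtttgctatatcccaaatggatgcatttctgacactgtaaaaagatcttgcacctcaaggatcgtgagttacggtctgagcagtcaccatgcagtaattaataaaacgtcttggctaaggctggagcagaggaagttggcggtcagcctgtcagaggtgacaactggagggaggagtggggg
The Ptgs2 window held the C/EBP site, which begins 69 bases before the gene's start. It also held the cyclic AMP core and the E-box, which begin 13 and 16 bases after the start and overlap each other. Among 32851 windows of this length, 0.180% held the C/EBP site, 19.9% the cyclic AMP core, 6.79% the E-box and 13.1% the TATA box. The Ptgs1 window held none of the 4. A match describes the letters and does not show a working site.

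Telocytes had the highest mean Ptgs2 level over the 4 libraries, but not the highest level in each library: the Has1 fibroblasts were higher in all but DSS 2, and in control 2 the macrophages, dendritic cells, Pi16 fibroblasts and vascular mural cells were too. In telocytes it lay at 125 and 131 CPM in control 1 and control 2 and at 627 and 1439 CPM in DSS 1 and DSS 2 (log2 fold change 3.12, SE 0.48, unadjusted p = 0.000186, adjusted p = 0.0966). Both DSS libraries were far above the controls, which were close to each other. The share of telocytes with a Ptgs2 UMI was 25.8%, 17.4%, 56.0% and 62.5%, and 6.52%, 13.0%, 30.0% and 43.1% once each cell was thinned to 1000 UMIs. Plasma cells, which should lack the gene, had shares of 0.714% to 3.24% at a higher median depth of 8684 to 14931 UMIs. The call depended on the setting: the adjusted p was 6.70e-07 with DESeq2 and 0.0484 at the finer clustering. Under these settings 0.823% and 0.205% of all telocyte genes passed. Ptgs2 did not pass with total UMIs as library size, without the count filter, at the stricter mitochondrial limit or with predicted doublets kept. In that order, 2, 0, 1 and 0 telocyte genes of any kind passed, against 2 in the main fit. Whether Ptgs2 passed also depended on which library was left out. With control 1 or control 2 left out, its log2 fold changes were 3.12 and 3.10. The number of telocytes was 97, 86, 225 and 261.

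In Adamdec1 fibroblasts Ptgs2 was at 6.49, 65.7, 75.7 and 833 CPM in control 1, control 2, DSS 1 and DSS 2. The DSS libraries lay above the controls, but control 2 and DSS 1 were close, and DSS 2 stood apart (3.77, SE 1.13, adjusted p = 0.723). The fit without DSS 1, which keeps only the library that stood apart in the DSS group, passed (4.60, adjusted p = 1.44e-09), as did 1.32% of all genes. Pi16 fibroblasts had 31.0, 142, 128 and 276 CPM, with control 2 above DSS 1, and Kcnn3 fibroblasts had 6.93, 18.4, 31.3 and 30.7 CPM. The Has1 fibroblasts, too few to test, had 391 CPM in control 2 and 783 and 742 CPM in DSS 1 and DSS 2. They supplied 48.7% of all Ptgs2 UMIs of DSS 2. Over all fibroblasts, a pool formed after the data had been seen, Ptgs2 was at 24.2, 152, 158 and 675 CPM (2.33, SE 1.00, adjusted p = 0.999). Without the Has1 fibroblasts these were 23.8, 117, 150 and 589 CPM (2.43, SE 0.86, adjusted p = 1.000). Both pools passed without DSS 1 (adjusted p = 0.0401 and 0.000975), as did 0.342% and 0.504% of all genes.

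Among myeloid cells, macrophages carried Ptgs2 at 61.6 and 363 CPM in the controls and at 189 and 528 CPM in the DSS libraries (log2 fold change 0.73, SE 0.80, adjusted p = 1.000). The groups overlapped, and replicate 2 was the higher library in each. Without DSS 2 the value was -0.15. The Chil3-led cluster of the finer clustering had 81.3, 800, 307 and 625 CPM, and the Ccl12-led cluster 60.5, 316, 137 and 420 CPM. The Chil3-led cluster was the higher in every library, the opposite order to Ptgs1. It held 10, 23, 318 and 207 cells. Dendritic cells had 46.6, 156, 147 and 217 CPM. Epithelial cells held little Ptgs2, at 0.104, 2.25, 3.29 and 4.76 CPM over all epithelial classes. Over all kept cells the level was 3.03 and 28.2 CPM in the controls and 47.1 and 137 CPM in the DSS libraries (2.46, SE 0.97, adjusted p = 0.461).

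Other immediate early genes also differed between libraries in the stroma. The summed level of the 20 genes of that list (Fos, Jun, Egr1 and others) in telocytes was 6056 and 18588 CPM in the controls and 30348 and 29816 CPM in the DSS libraries. In Adamdec1 fibroblasts it was 7006, 34708, 33160 and 43578 CPM, and in Pi16 fibroblasts 13439, 24196, 26104 and 24369 CPM. Control 1 was the lowest in each of these. Ptgs2 did not follow the list everywhere. In telocytes the list was far higher in control 2 than in control 1 at near equal Ptgs2 levels. In macrophages the list was highest in control 1 (25671 CPM, against 15473 to 18990 CPM), where Ptgs2 was lowest. All 20 genes of the list were tested in telocytes and 0 passed with edgeR, where 0.0220% of all genes did. Their median log2 fold change there was 1.68, beside -0.00 for all genes. Their part in the Ptgs2 values was not tested.

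**Figure D4:**
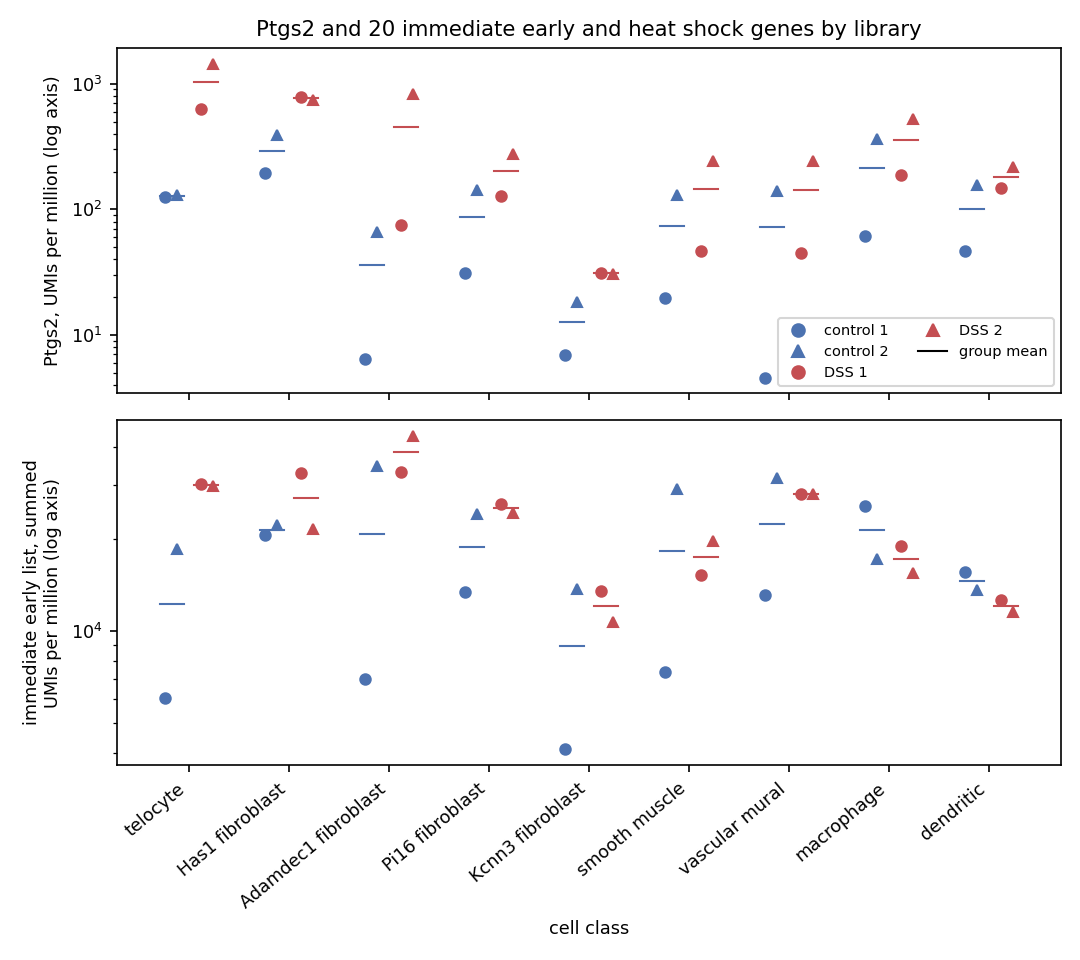
Ptgs2 level (upper panel) and summed level of 20 immediate early and heat shock genes (lower panel), in CPM on log axes, per library in 9 stromal and myeloid classes. Points are libraries and lines are group means; in telocytes the DSS libraries (627 and 1439) lie above the controls (125 and 131) for Ptgs2, and control 1 is lowest for both panels in most stromal classes.

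Ptges, the inducible synthase of prostaglandin E2, shared the leading class of the cyclooxygenases. Telocytes had 93.2 and 39.4 CPM in the controls and 109 and 98.4 CPM in the DSS libraries (log2 fold change 0.79, SE 0.43, adjusted p = 0.761). Both DSS libraries lay above both controls, by a small margin over control 1. Adamdec1 fibroblasts had 57.6, 36.5, 54.2 and 63.3 CPM (0.47, SE 0.34, adjusted p = 1.000), and Pi16 fibroblasts 22.1, 20.4, 21.5 and 28.5 CPM (0.30, SE 0.26, adjusted p = 1.000). In macrophages it did not exceed 1.72 CPM. In DSS 1, 51.6% of telocytes with a Ptgs2 UMI also had one of Ptges, against 40.4% of all telocytes, and in DSS 2 39.3% against 27.2%. Across all kept cells Ptges was at 3.07 and 3.89 CPM against 5.95 and 6.44 CPM (0.77, SE 0.41, adjusted p = 0.585).

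Ptgis, which makes prostacyclin, a dilator of vessels, followed another set of stromal cells. Kcnn3 fibroblasts had 370, 377, 304 and 424 CPM in control 1, control 2, DSS 1 and DSS 2 (log2 fold change 0.00, SE 0.35, adjusted p = 1.000). All 4 values were above those of every other class. Among the named classes, Cajal cells (146 to 247 CPM), vascular mural cells (252, 158, 199 and 157 CPM; -0.09, SE 0.39, adjusted p = 1.000) and Pi16 fibroblasts (159, 207, 135 and 205 CPM; -0.04, SE 0.27, adjusted p = 1.000) followed with overlapping ranges. The vascular mural value turned without control 1 (0.29) or DSS 2 (0.12), and the Pi16 value without control 2 (0.13) or DSS 1 (0.17). In telocytes Ptgis lay at 78.6 and 177 CPM in the controls and at 22.0 and 44.9 CPM in the DSS libraries, without overlap. That difference did not pass (adjusted p = 0.285), but it passed in the fit without control 1 (-2.27, SE 0.37, adjusted p = 0.0294, against 0.978% of all genes). The telocytes thus had Ptgs2 above and Ptgis below the controls in both DSS libraries. Over all kept cells Ptgis was at 21.5 and 24.0 CPM against 33.3 and 39.1 CPM (0.61, SE 0.31, adjusted p = 0.567).

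Hpgds, the synthase of prostaglandin D2, had its highest mean levels in macrophages and tuft cells. Enteroendocrine cells, the hormone cells of the epithelium, which were not tested, came next at 102, 36.1, 98.9 and 73.2 CPM. The far more numerous colonocytes, progenitors, goblet and Aqp4-led cells lay between 1.25 and 11.9 CPM, and together with the enteroendocrine cells they gave 46.0%, 34.5%, 4.98% and 38.0% of all Hpgds UMIs. Macrophages had 211 and 468 CPM in the controls and 157 and 197 CPM in the DSS libraries, with no overlap (log2 fold change -0.96, SE 0.45, adjusted p = 1.000). At the finer clustering the Ccl12-led cluster had 219, 515, 218 and 382 CPM, with overlapping groups, and the Chil3-led cluster 16.5 to 81.3 CPM. The Chil3-led cluster held 10 and 23 cells in the controls and 318 and 207 in the DSS libraries, beside 167, 171, 631 and 157 in the Ccl12-led cluster. The part of this mix in the macrophage values was not tested. Tuft cells had 241, 289, 279 and 66.2 CPM, and only DSS 2 stood apart (-0.37, SE 0.60, adjusted p = 1.000). Without DSS 1 the fold change was -1.98 (adjusted p = 0.00336, against 2.56% of all genes passing), and without DSS 2 it was 0.36. In the same tuft cells the 12 tuft markers summed to 4067, 4517, 6007 and 2240 CPM, and the 10 fibroblast markers to 716, 171, 1071 and 2729 CPM. The part of other cells' RNA in the low DSS 2 value was not tested.

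Of Pi16 fibroblasts, 0.177% to 0.927% had a Hpgds UMI, far below the shares of tuft cells given with Ptgs1. Tuft cells numbered 137, 29, 123 and 67. Dendritic cells had 16.5, 203, 15.1 and 23.3 CPM, a value carried by control 2 alone (-2.49, SE 0.90, adjusted p = 1.000). Their median depth in control 2 was 1284 UMIs, against 2495 to 6453 in the other libraries. Clustered more finely, the dendritic cells had 3.93, 13.0, 11.6 and 14.8 CPM, and an unnamed cluster led by Retnla and Lyz1 had 450 CPM in control 2 and 29.3 to 45.9 CPM elsewhere. The dendritic value was 0.46 at that clustering and 0.26 without control 2, and it passed without DSS 2 (-2.71, adjusted p = 0.0459), as did 0.682% of all genes. Across all kept cells Hpgds was at 9.15, 13.4, 16.5 and 9.74 CPM (0.17, SE 0.41, adjusted p = 0.931), and at -0.10 without control 1 or -0.32 without DSS 1.

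Hpgd, which ends prostaglandin signals, was high in surface epithelium. In colonocytes it lay at 439 and 447 CPM in the controls and at 224 and 260 CPM in the DSS libraries (log2 fold change -1.01, SE 0.22, unadjusted p = 0.00300, adjusted p = 0.110). The replicates of each group were close and the groups were well apart. In the Aqp4-led epithelial cells, led by Cyp2c69, Cyp2c68 and Aqp4, the values were 438 and 400 CPM against 236 and 226 CPM (-0.99, SE 0.26, adjusted p = 0.307). DESeq2 passed both (adjusted p = 0.00270 and 0.0244), where it passed 6.29% and 1.86% of all genes. Colonocytes also passed at the limit of 10% mitochondrial UMIs (-1.22, adjusted p = 0.0391), as did 1.59% of all genes. Within colonocyte cluster 1 the values were 495, 518, 240 and 283 CPM. Within cluster 8 they were 529, 384, 229 and 254 CPM, from 5 cells in control 1, and within cluster 0 they were 304, 388, 202 and 313 CPM, where DSS 2 was above control 1.

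Progenitors and goblet cells had less Hpgd. Progenitors had 131 and 121 CPM in the controls and 137 and 173 CPM in the DSS libraries, and goblet cells, which secrete mucus, 81.7 and 76.5 CPM against 84.7 and 115 CPM. In both, the DSS libraries lay above the controls; whether these classes differ from colonocytes in the response was not tested. Tuft cells had 115 to 238 CPM and telocytes 218, 222, 281 and 274 CPM. The highest level of all classes was that of Cajal cells, at 699, 879, 570 and 803 CPM from 222, 11, 337 and 58 cells. Unnamed cluster 28, led by Cckar and Pcp4, had 468 to 638 CPM. Over all kept cells Hpgd was at 201, 284, 112 and 175 CPM (-0.83, SE 0.44, adjusted p = 0.589).

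Macrophages held Hpgd at 543 and 208 CPM in the controls and at 169 and 79.5 CPM in the DSS libraries (log2 fold change -1.62, SE 0.59, adjusted p = 1.000). Control 1 was far above the rest. Free RNA from epithelium can put Hpgd UMIs into other cells, so the gene was set against the sum of 7 epithelial markers. The ratio in colonocytes was 0.0176, 0.0169, 0.00915 and 0.00795. In macrophages it was 0.898, 0.114, 0.512 and 0.108, above that of colonocytes in every library. In B cells, where Hpgd lay at 61.4, 250, 17.2 and 24.1 CPM, the ratio was 0.0103, 0.0206, 0.00743 and 0.00376, in the range of colonocytes or close to it, as in T cells (0.00757 to 0.0160) and plasma cells (0.00609 to 0.0153). The part of epithelial RNA in the Hpgd values of these lymphoid classes was not tested. B cells passed in the fit without control 1 (-3.48, adjusted p = 0.00356), as did 1.44% of all genes, with the 33 B cells of control 2 as the single control library.

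**Figure D5:**
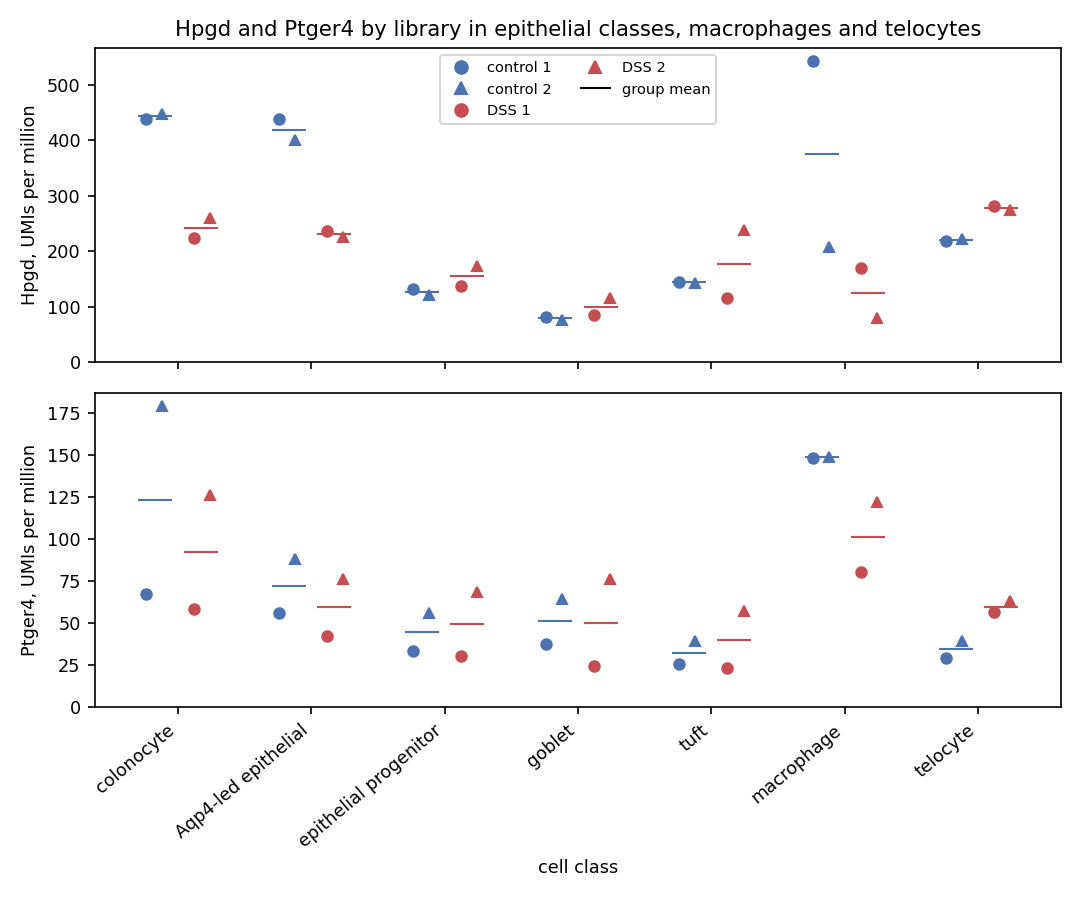
Levels of Hpgd (upper panel) and Ptger4 (lower panel) in CPM, per library, in 5 epithelial classes, macrophages and telocytes. Points are libraries and lines are group means; Hpgd in colonocytes is at 439 and 447 in the controls and 224 and 260 in the DSS libraries, while Ptger4 in colonocytes separates replicate 1 from replicate 2 in both groups.

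Of the receptors of prostaglandin E2, Ptger4, which signals through cyclic AMP, was the most widely spread. Dendritic cells had 85.0, 159, 136 and 147 CPM (log2 fold change 0.28, SE 0.38, adjusted p = 1.000), and the value without control 1 was -0.01. Macrophages had 148 and 149 CPM in the controls and 80.3 and 122 CPM in the DSS libraries, without overlap (-0.59, SE 0.36, adjusted p = 1.000). Colonocytes had 66.9, 179, 58.1 and 126 CPM (-0.56, SE 0.51, adjusted p = 0.587). There the replicates differed more than the groups: control 2 and DSS 2 were higher than control 1 and DSS 1, and without control 2 the value was 0.32. In the other epithelial classes replicate 2 was likewise the higher library of its group. The same held in every tested class outside the epithelium, though in the control macrophages only by 149 against 148 CPM. Vascular mural cells, for example, had 9.91 and 42.9 CPM in the controls and 11.3 and 33.9 CPM in the DSS libraries. In telocytes Ptger4 was at 29.1 and 39.4 CPM against 56.4 and 63.0 CPM, without overlap (adjusted p = 0.524). Across all kept cells it was at 40.8, 117, 36.6 and 86.9 CPM (-0.44, SE 0.60, adjusted p = 0.871), with 0.58 without control 2 and 0.03 without DSS 1.

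Ptger2, the other receptor that raises cyclic AMP, was low and mostly stromal. Adamdec1 fibroblasts had 38.9, 27.4, 26.9 and 21.3 CPM (log2 fold change -0.29, SE 0.37, adjusted p = 1.000) and telocytes 32.0, 24.6, 21.4 and 19.5 CPM (-0.32, SE 0.42, adjusted p = 0.944). In both, the DSS libraries were slightly lower and the differences were small against the spread. Smooth muscle had 10.4, 17.4, 11.5 and 23.2 CPM (0.30, SE 0.50, adjusted p = 1.000), with -0.12 without DSS 2. Lymphatic endothelial cells, which were not tested, had 9.41 to 39.4 CPM, with as few as 18 cells in a library. Epithelial cells and tuft cells together gave 0.398% to 4.40% of Ptger2 UMIs, and macrophages with dendritic cells 2.20% to 16.3%. Over all kept cells Ptger2 lay at 0.985 and 1.11 CPM against 2.52 and 1.75 CPM (0.98, SE 0.54, adjusted p = 0.601).

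Ptger3, a receptor that lowers cyclic AMP, marked Cajal cells, at 174, 95.1, 157 and 108 CPM. All 4 values were above those of every other class. The next were unnamed cluster 28 with 16.7 to 33.1 CPM, then smooth muscle with 17.6, 10.4, 13.9 and 8.0 CPM (log2 fold change -0.26, SE 0.56, adjusted p = 1.000). The smooth muscle value turned without control 1 (0.25) or DSS 2 (0.09). Kcnn3 fibroblasts had 10.1 and 21.5 CPM against 6.90 and 6.42 CPM, without overlap (-0.93, SE 0.55, adjusted p = 1.000). The share of Cajal cells with a Ptger3 UMI was 37.8%, 27.3%, 53.7% and 25.9%, and that of colonocytes 0.854% to 2.29%. An Hpgd UMI was found in 75.0%, 66.7%, 74.0% and 86.7% of Cajal cells with a Ptger3 UMI, close to the 69.8%, 81.8%, 76.0% and 72.4% of all Cajal cells. Across all kept cells Ptger3 was at 3.89, 1.58, 5.54 and 1.89 CPM (0.42, SE 0.68, adjusted p = 0.894), with -0.02 without control 2 and -0.62 without DSS 1. The libraries stood in the same order by their number of Cajal cells (222, 11, 337 and 58).

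The rest of the pathway was read from a list of 43 genes. It gave 358 pairs of gene and tested class, of which 0 passed upwards and 1 downwards. That gene was Pla2g12a, a secreted phospholipase, in progenitors: it fell from 37.0 and 42.8 CPM to 14.7 and 10.7 CPM (log2 fold change -1.68, SE 0.29, adjusted p = 0.0341). Progenitors were also the class with the most genes passing, at 100 of 13035 (0.767%). In telocytes 19 genes of the list were tested and 0 passed, where 0.0220% of all genes did, and their median log2 fold change was -0.39, beside -0.00 for all genes. In colonocytes 29 were tested and 0 passed, against 0.0145% of all genes (median 0.39, beside -0.02). In tuft cells 17 were tested and 0 passed, against 0.0125% (median -0.24, beside 0.03). In macrophages 24 were tested and 0 passed, as for all genes (median -0.06, beside -0.02).

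Tuft cells held the leukotriene enzymes beside Ptgs1 and Hpgds. Alox5, the lipoxygenase that starts leukotriene synthesis, lay at 195, 303, 345 and 129 CPM there, against no more than 49.1 CPM in macrophages. Its partner Alox5ap had 424, 314, 466 and 158 CPM, and the leukotriene C4 synthase Ltc4s 470, 360, 372 and 227 CPM. As with Hpgds, DSS 2 was the lowest library for each. Macrophages held Tbxas1, the thromboxane synthase (115, 107, 81.2 and 74.9 CPM), and Pla2g7, which degrades platelet-activating factor (405, 688, 412 and 347 CPM). Blood endothelial cells held Slco2a1, the prostaglandin transporter, at 569, 488 and 757 CPM in control 1, DSS 1 and DSS 2, and control 2 had a single such cell. Colonocytes also held Slco2a1, at 132 and 251 CPM in the controls and 83.1 and 66.9 CPM in the DSS libraries (-1.49, SE 0.34, adjusted p = 0.114), a pair named after its values were seen. Like Hpgd, it lay lower there in both DSS libraries than in either control. The receptors of prostaglandin D2, Ptgdr and Ptgdr2, had 2 to 7 and 0 to 3 UMIs per library over all kept cells, too few to place.

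Across the mean log2 levels of the 24 classes, Ptgs1 and Ptgs2 had a Pearson r of 0.78 with each other, Ptges and Ptgis 0.70, and Pla2g4a and Hpgd 0.78. These are descriptions over classes that share libraries and depth. Of 12884 genes searched, Ptgs2 was most like Ecm1 (r = 0.909) and P2ry14 (0.902), Ptgs1 like Dram1 (0.835) and Pltp (0.809), and Ptges like Arsj (0.948) and Gm36962 (0.946). Ptgis was most like Aspn (0.966) and Twist1 (0.961), Hpgds like Ptpn6 (0.876) and Vav1 (0.829), and Hpgd like Gm45540 (0.840) and Plxnb2 (0.838). Gm45540 overlaps Hpgd on the same strand, so their reads may not be separable. It was also the gene most like Pla2g4a (0.808), followed by Steap3 (0.776). Ptger2 was most like F2r (0.787) and Mex3b (0.768), Ptger3 like Cntn3 (0.884) and Hand1 (0.883), and Ptger4 like Rnf149 (0.804) and Gmip (0.791).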

How the data were processed

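The deposited values are whole-number UMI counts per gene and barcode, from 10x Chromium 3-prime libraries. They were made with Cell Ranger 6.1.1 on GRCm38, per the submitters' processing notes, and its settings are not known here. The labels give the kit as V3 for capture but v2 for library construction, which was not resolved. Gene positions are from GENCODE M21 (GRCm38) and promoter sequences from RefSeq.

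Cells were kept with at least 500 UMIs, 250 genes and at most 25% mitochondrial UMIs (44356 cells). The mitochondrial limit removed 14.0% and 17.4% of barcodes in the controls and 5.16% and 6.42% in DSS. Scrublet in scanpy 1.11.5 predicted doublets (3.03% to 5.38%), which were removed after clustering (2000 variable genes, 40 components, 20 neighbours, leidenalg 0.10.2, resolution 1). A marker counted if 15% or more of the cells in a cluster had it, at a level 2-fold that of other cells. A name needed 3 counted markers and went to the list with the most of them among the top 20 genes, a rule set after the clusters were seen. A total of 1632 cells stayed unnamed. Shares carry exact binomial intervals in the tables, which cover counting error only.

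UMI sums of each class in each library went into edgeR 4.0.16 (two-sided quasi-likelihood test) (TMM, filterByExpr, group as the sole term) in R 4.3.3, with Benjamini-Hochberg adjustment over all genes of a class. It was tested on simulated data, where 5 of 11442 unchanged genes were called. With 2 libraries against 2 no exact permutation test was used. Fold changes are printed for each gene in the 3 tested classes with its highest mean level (at least 5 CPM) and in all kept cells; a few others are named after their values were seen. Like genes needed 20 CPM in a class. The genes, lists and tests were chosen with earlier results of these data known. Alternatives were DESeq2 1.42.0, library size without TMM, no count filter, a replicate block, each library left out, 10% mitochondrial UMIs, doublets kept, resolution 2 and cells thinned to 1000 UMIs.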

Additional observations from a re-analysis of the deposited data

Results flagged for a closer look

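Among pairs of gene and tested class with a mean level of at least 5 CPM, 6 of the genes had both DSS libraries above both controls in some classes and below both in others. Of all tested pairs, without that limit on level, both DSS libraries lay above both controls in 13.0% and below both in 19.2%. How many genes of any kind show both patterns was not tested, so the 6 genes are not shown to be unusual. Ptgs1 had log2 fold changes (DSS over control) of 0.46 in Adamdec1 fibroblasts, 0.64 in Kcnn3 fibroblasts and 0.63 in smooth muscle, and of -0.32 in Pi16 fibroblasts and -1.39 in dendritic cells. Ptges was at 0.79 in telocytes and -0.45 in Kcnn3 fibroblasts. Ptger2 was at 0.96 in T cells, -0.29 in Adamdec1 fibroblasts and -0.32 in telocytes. Ptger4 was at 0.92 in telocytes, -0.73 in B cells and -0.59 in macrophages.

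Hpgd stood at 0.34 in progenitors, 0.45 in goblet cells and 0.47 in telocytes. On the other side were colonocytes (-1.01), Aqp4-led epithelial cells (-0.99), macrophages (-1.62), dendritic cells (-1.49), vascular mural cells (-1.01), B cells (-2.69), ILC or NK cells (-2.22), T cells (-0.44) and Adamdec1 fibroblasts (-0.01). The ratio of Hpgd to the summed epithelial markers was 0.0176, 0.0169, 0.00915 and 0.00795 in colonocytes. It was 0.0186, 0.0153, 0.0117 and 0.00497 in ILC or NK cells and 0.0244, 0.0138, 0.0209 and 0.0106 in vascular mural cells. In dendritic cells it was 0.0581, 0.0177, 0.0281 and 0.00923. The part of epithelial RNA in these values, as in those of B and T cells, was not tested. Pla2g4a stood at 0.93 in Aqp4-led epithelial cells and 0.80 in smooth muscle, against -0.54 in Pi16 fibroblasts, -0.29 in progenitors, -0.52 in goblet cells and -1.15 in tuft cells. These differences between classes were not tested, and no single value passed its own adjusted test with edgeR.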

How the results depend on the processing

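With 2 libraries a group, 1 library decided many values. Genes called over the 18 classes numbered 105, and 1720 with DESeq2, 183 with total UMIs as library size, 4609 without a count filter, 314 at 10% mitochondrial UMIs, 181 at resolution 2 and 681 to 2350 with 1 library left out. Pairs of the 10 genes numbered 0, and 3 with DESeq2, 10 without the filter, 1 at 10% mitochondrial UMIs, 1 at resolution 2 and 2 to 4 with 1 library left out. The numbers of gene and class pairs tested differed: 179533 in the main fit, 170846 with DESeq2 and 382960 without the filter. Of these, 0.0585%, 1.01% and 1.20% passed. The replicate block called 2822 genes and 12 pairs of the 10 genes. Among the latter were Ptgs2 in telocytes (adjusted p = 6.67e-05) and Adamdec1 fibroblasts (adjusted p = 1.32e-05), and Hpgds in dendritic cells (adjusted p = 1.94e-05). Whether pairs of the 10 genes passed more often than all pairs was not tested under any setting. Same-numbered libraries had deviations correlated at -0.06 to 0.52 over 18 classes, and the labels give them only a number. Of 428 alternative fold changes, 388 kept direction and side of the threshold, 17 newly passed and 23 turned, in 14 results. With 1 library left out, those results ranged from -0.17 to 0.52 for Ptgs1 in telocyte, -0.15 to 2.53 for Ptgs2 in macrophage, -0.41 to 0.29 for Ptgis in vascular mural, -0.30 to 0.17 for Ptgis in Pi16 fibroblast, -1.98 to 0.36 for Hpgds in tuft, -3.26 to 0.26 for Hpgds in dendritic, -0.32 to 0.60 for Hpgds in all kept cells, -0.12 to 0.67 for Ptger2 in smooth muscle, -0.91 to 0.25 for Ptger3 in smooth muscle, -0.62 to 1.17 for Ptger3 in all kept cells, -0.01 to 0.80 for Ptger4 in dendritic, -1.18 to 0.32 for Ptger4 in colonocyte, -1.06 to 0.58 for Ptger4 in all kept cells and -0.32 to 1.72 for Pla2g4a in telocyte, and Hpgds in dendritic was 0.46 at resolution 2. The cause was not tested. Library size without TMM shifted the median of all genes by -0.32 to 0.14, over 0.1 in 8 classes. The mean Hpgd level in colonocytes was 342 CPM, and 409 CPM at 10% mitochondrial UMIs. That limit left tuft cells untested. Thinning to 1000 UMIs gave mean shares of cells with a UMI of 22.0% for Ptgs1, 23.2% for Ptgs2, 6.41% for Ptges and 17.0% for Pla2g4a in telocytes, 30.5% for Ptgis in Kcnn3 fibroblasts, 18.6% for Hpgds in macrophages, 24.6% for Hpgd in colonocytes, 2.42% for Ptger2 in Adamdec1 fibroblasts, 1.43% for Ptger3 in smooth muscle and 10.4% for Ptger4 in dendritic cells.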
